A study of Mus musculus with 2 samples.

Results

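The 8 genes described here are Hmgcs1, Idi1, Fdps, Fdft1, Sqle and Lss, which encode enzymes of sterol synthesis, and Insig1 and Srebf2, which encode regulators of it. They were chosen by their symbols, and all 8 were found, each as 1 row, among the 25509 genes of the count table. The table came from 2 RNA-seq libraries of mouse soft-tissue sarcoma cells (strain C57BL/6), 1 transduced with the control hairpin shCTR and 1 with shcircCsnk1g3, a hairpin against the backsplice junction of the circular RNA circCsnk1g3. Both libraries carried the same background of p53 knockout and stable, retroviral overexpression of Ccne1 in mesenchymal stem cells (p53-/-Ccne1+). These cells had formed a subcutaneous tumor, had then been seeded in the lungs of secondary recipients and had been taken back from the lung foci before transduction. The comparison asks which transcripts of the tumor cells differ when circCsnk1g3 is silenced. With 1 library per condition there was no replicate check, and no test between conditions was made.

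Cells make cholesterol from acetyl-CoA through mevalonate, farnesyl diphosphate, squalene and lanosterol. SREBP2, the product of Srebf2, is a membrane protein that is held in the endoplasmic reticulum by INSIG proteins when sterols are plentiful. When sterols run low, the escort protein SCAP carries SREBP2 to the Golgi, where the proteases encoded by Mbtps1 and Mbtps2 release a fragment that enters the nucleus and activates the genes of sterol synthesis and uptake, Insig1 and Srebf2 among them. The transcripts of the pathway are therefore a common readout of SREBP2 activity. The libraries measured these transcripts, and neither SREBP2 cleavage nor sterols were measured by them.

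The library with shcircCsnk1g3 held 38792143 counts and that with shCTR 42709996. Linear Csnk1g3 had 2159 and 2411 counts, and since a circular RNA has no poly(A) tail, the silencing of circCsnk1g3 itself could not be checked in these poly(A) libraries. Ccne1 stood at 22.8 CPM (counts relative to the library total, scaled by TMM) in both libraries. Trp53 had 3841 and 4334 counts in these cells labelled p53-/-, and counts per gene do not show which exons were read. Of 8 mesenchymal markers 7 were present, with summed levels of 10266 and 10670 CPM, and Thy1 was at 0 and 1 counts. Markers of other cells summed to at most 3.86 CPM in either library for leukocytes, 0.686 CPM for endothelium and 0.383 CPM for lung epithelium. Cd68 held most of the leukocyte counts, while Cd3e, Itgam, Adgre1 and Lyz2 were at 0 in both libraries.

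SREBP2 acts on DNA through sterol regulatory elements, usually beside sites of the general factors NF-Y and Sp1. RefSeq promoter windows (GRCm38.p6, from 250 bases before to 50 bases after the start site) were at hand for 5 of the 8 genes, and both strands were searched for the sterol element forms TCACNNCAC and CACNCCAC, for the NF-Y box CCAAT and for the Sp1 box GGGCGG. The long form was found in Hmgcs1 only, whereas 3.77% of all 32851 windows hold it. The short form was found in Hmgcs1, where it overlaps the long form, and in Insig1, against 6.24% of all windows. All 5 windows held both CCAAT (37.4% of all windows) and GGGCGG (35.7%). The sites of the sterol elements, and 1 NF-Y box for each of the 5 genes, are given below 5′ to 3′ on the strand of the match, with the motif in capitals, because factors of the pathway are known to act through such motifs.
Hmgcs1 sterol element: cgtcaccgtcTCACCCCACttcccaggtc
Insig1 sterol element: atggaaggtaCACGCCACgacactacac
Hmgcs1 NF-Y box: ccgctttcagCCAATgagaggcggg
Idi1 NF-Y box: cccgggctcgCCAATcagctggagg
Lss NF-Y box: gcgagctcggCCAATcagagcatca
Insig1 NF-Y box: gccgccggagCCAATgggaggaggg
Srebf2 NF-Y box: cttgcattagCCAATcggcgcgcga
The Hmgcs1 element shown lies at chr13:119690204-119690232 (plus strand) and its motif begins 137 bases before the start site. The Insig1 element lies at chr5:28071393-28071420 (minus strand), and along the gene its motif begins 9 bases before the start site. The NF-Y boxes shown for Hmgcs1 and Idi1 lie 45 bases before their start sites. That of Lss lies 62, that of Srebf2 135 and that of Insig1 216 bases before. The Hmgcs1 window held 4 CCAAT matches and that of Idi1 held 2, of which 1 each is shown. A match describes the sequence and does not show binding, and no match says only that these letters are not in the window.

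**Figure D1:**
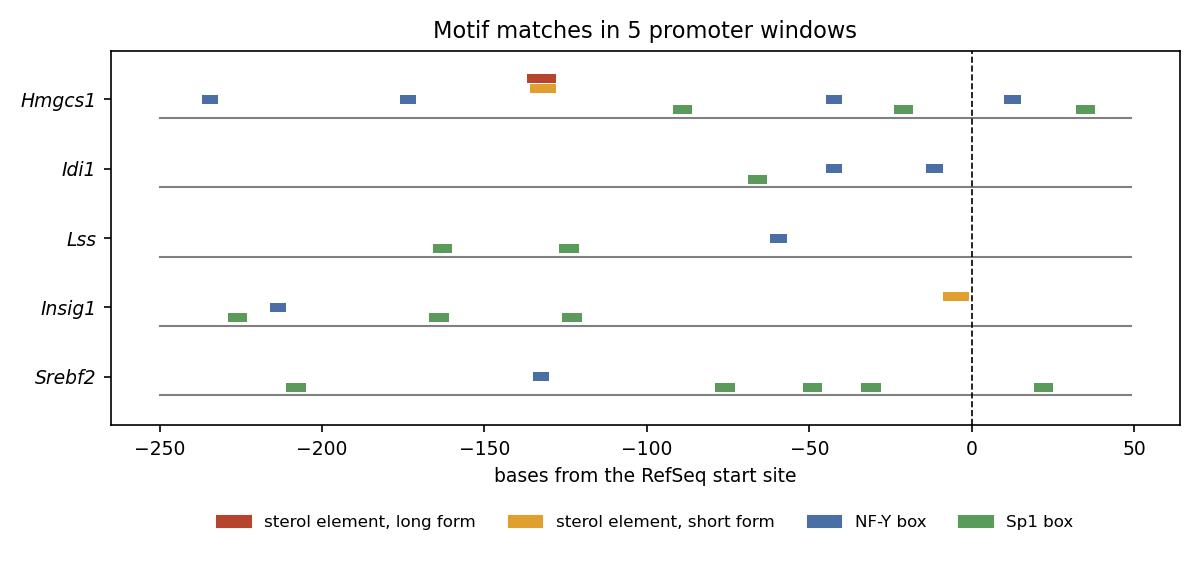
Matches of the 4 motifs in the promoter windows of the 5 genes for which a window was at hand. The horizontal axis gives bases from the RefSeq start site (dashed line), each grey line is 1 window, and each bar is 1 match on either strand, with the red and amber bars of the sterol element in Hmgcs1 and Insig1 alone.

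The transcripts of the sterol genes stood at nearly the same level in both libraries. None of the 8 was at least 1.5-fold higher after silencing, against 5.39% of the 12941 genes tested (those that reached 10 counts in either library), and none was at least 1.5-fold lower, against 6.31%. Their log2 ratios, taken on TMM-scaled CPM after edgeR added a prior count of 2, ran from -0.14 (Idi1) to 0.18 (Hmgcs1), with a median of 0.00, as for all genes tested. Together the 8 genes held 104704 counts, 0.270% of the shcircCsnk1g3 library (95% exact Clopper-Pearson interval 0.268 to 0.272), and 114044 counts, 0.267% of the shCTR library (0.265 to 0.269). After TMM scaling the log2 ratio of their summed counts was -0.02 (-0.03 to -0.0036), opposite in direction to the unscaled shares, so that the sign of this small difference depends on the scaling. The ranges given with log2 ratios here are 95% exact intervals of the ratio of counts. Those given with log2 differences are approximate 95% intervals instead. All of them compare these libraries, not the conditions, and cover counting error only.

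**Figure D2:**
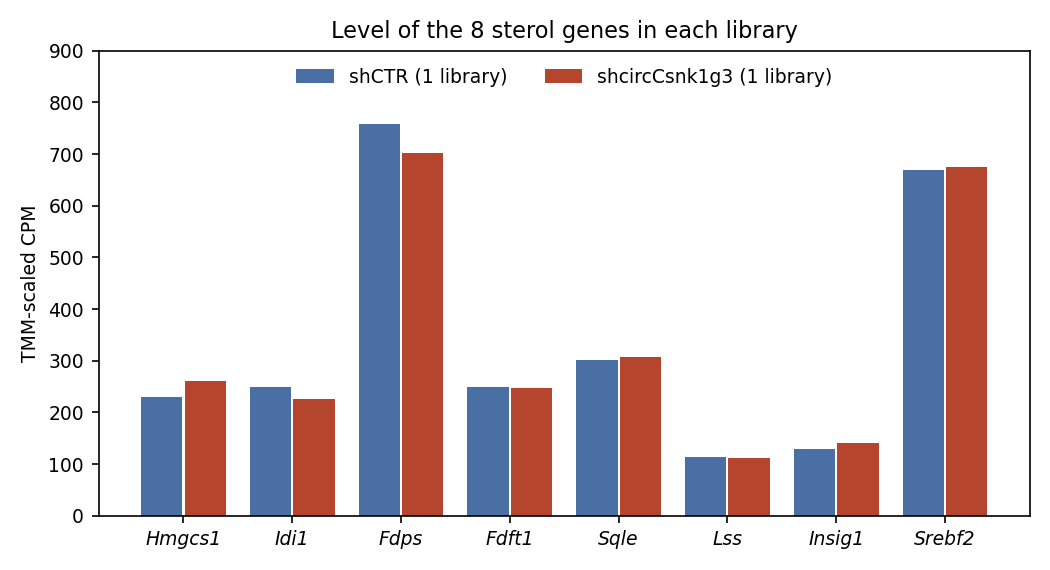
Level of each of the 8 genes in TMM-scaled CPM (vertical axis), with 1 bar for the shCTR library and 1 for the shcircCsnk1g3 library. The bars of a pair stand at nearly the same height for every gene, from 112 and 114 CPM for Lss to 703 and 758 CPM for Fdps.

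The first of the 6 enzymes, HMG-CoA synthase, makes the precursor of mevalonate and is encoded by Hmgcs1 (ENSMUSG00000093930, chr13:119690379-119708260, GRCm38, plus strand). Hmgcs1 had 10205 counts (260 CPM) in the shcircCsnk1g3 library and 9735 counts (230 CPM) in the shCTR library. It was the gene most in favor of the silenced cells, with a log2 ratio of 0.18 (0.14 to 0.22), or 12.9% more. An antisense gene without a row in the table, Gm48342, overlaps it.

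Idi1 (ENSMUSG00000058258, chr13:8885501-8892451, plus strand) encodes the isomerase that balances the 5-carbon building blocks of the pathway. In M21 it starts before the NF-Y box shown above, which then lies within the gene. It went the other way, with 8850 counts (226 CPM) after silencing and 10526 counts (249 CPM) in the control, a log2 ratio of -0.14 (-0.18 to -0.10). Its paralog Idi2 had 1 and 0 counts. Fdps (ENSMUSG00000059743, chr3:89093588-89101959, minus strand), which encodes farnesyl diphosphate synthase at the branch point to sterols, dolichol, ubiquinone and prenylated proteins, had 27565 counts (703 CPM) and 32034 counts (758 CPM), a log2 ratio of -0.11 (-0.13 to -0.086). Gm43738 overlaps Fdps on the same strand and was given 23 and 9 counts. Idi1 and Fdps, which act in sequence, were thus slightly lower in the silenced library, while Hmgcs1 upstream of both was slightly higher.

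The enzymes that commit the pathway to sterols showed no difference beyond counting error. Fdft1 (ENSMUSG00000021273, chr14:63145150-63179578, minus strand) encodes squalene synthase and had 9714 and 10484 counts in the silenced and control libraries, or 248 CPM in each, with a log2 ratio of 0.00 (-0.04 to 0.04). Its end overlaps that of Ctsb on the opposite strand by 774 bases, and Ctsb was abundant, with 39946 and 44263 counts. Whether the counting used strand is not given in the sources used here, so reads of the shared end cannot be told apart. Sqle (ENSMUSG00000022351, chr15:59315077-59331192, plus strand), which encodes squalene epoxidase, a slow step of the late pathway, had 12014 counts (306 CPM) and 12736 counts (301 CPM), with a log2 ratio of 0.02 (-0.01 to 0.06). Lss (ENSMUSG00000033105, chr10:76531588-76557138, plus strand), whose product closes the sterol rings to form lanosterol, had 4396 counts (112 CPM) and 4804 counts (114 CPM), a log2 ratio of -0.02 (-0.08 to 0.04). The intervals of these 3 genes leave room for no more than 0.08 in either direction on the log2 scale as far as counting goes, and the spread between cultures is unknown.

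Of the regulators, Srebf2 was within counting error and Insig1 was slightly higher after silencing. Srebf2 (ENSMUSG00000022463, chr15:82147181-82205379, plus strand) had 26431 counts (674 CPM) after silencing and 28254 counts (669 CPM) in the control, a log2 ratio of 0.01 (-0.01 to 0.04). Insig1 (ENSMUSG00000045294, chr5:28071363-28078662, plus strand), a sterol-responsive target that also restrains SREBP2, had 5529 counts (141 CPM) and 5471 counts (129 CPM), a log2 ratio of 0.12 (0.07 to 0.18). In the M21 annotation Insig1 starts before the sterol element match shown above, so that the match lies within the gene there. Insig2, its paralog, had 1317 and 1486 counts.

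Counting error was smaller than the difference for 4 of the 8 genes. The interval lay above 0 for Hmgcs1 and Insig1, the pair whose promoter windows held a sterol element match, and below 0 for Idi1 and Fdps. Fdps, Fdft1 and Sqle had no window, so a relation of promoter and ratio was not tested. Among all genes tested 26.9% had an interval above 0 and 28.2% below 0, and 2 of 8 in each direction is near that background. With total counts in place of TMM, which moves the median of all genes to 0.03, the intervals of Sqle and Srebf2 also lay above 0, and Fdft1 and Lss turned to 0.03 and 0.01. Under that setting the intervals of 4117 of the 12941 genes lay above 0 and of 3067 below 0, against 3476 and 3651 with TMM. A ratio between genes of the same library does not depend on the scaling. Hmgcs1 and Idi1 are given as the highest and the lowest of the 8 ratios, chosen after their values were seen, so their difference is a description. Hmgcs1 had 1.15 counts per count of Idi1 in the silenced library and 0.925 in the control, a log2 difference of 0.32 (0.26 to 0.38 from the 4 counts). Of the counts of the 8 genes, Hmgcs1 took 9.75% (9.57 to 9.93) and 8.54% (8.37 to 8.70), Fdps took 26.3% (26.1 to 26.6) and 28.1% (27.8 to 28.4), and Srebf2 took 25.2% and 24.8%.

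Genes as abundant as these differ little between the libraries in general. The limit of 4000 counts in each library, just under the lowest of the 8 genes, was chosen after the values were seen and left 2220 genes. The 5th and 95th percentiles of their log2 ratios were -0.31 and 0.25, and the middle part, from the 25th to the 75th percentile, ran from -0.12 to 0.08. Of these genes 0.45% were at least 1.5-fold higher and 0.811% at least 1.5-fold lower, while 32.2% had an interval above 0 and 43.4% below 0. All 8 sterol genes lay between the 5th and 95th percentiles, and Hmgcs1, Insig1 and Idi1 lay outside the middle part.

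**Figure D3:**
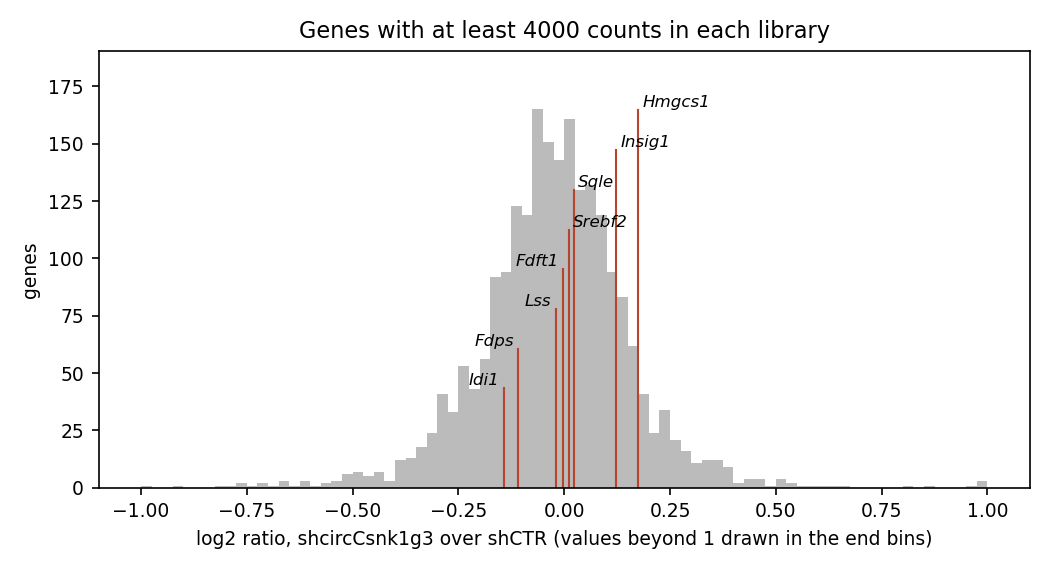
Number of genes (vertical axis) by log2 ratio of TMM-scaled CPM, shcircCsnk1g3 over shCTR (horizontal axis), for the 2220 genes that reached 4000 counts in both libraries. Red lines mark the 8 sterol genes, whose heights only separate the names, from Idi1 at -0.14 to Hmgcs1 at 0.18.

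Levels between genes were compared as CPM per kilobase of the longest coding transcript in GENCODE M21. Fdps was the most abundant, at 509 in the silenced and 549 in the control library, followed by Srebf2 at 133 and 132 and Sqle at 111 and 109. Hmgcs1 (75.1 and 66.5), Idi1 (74.6 and 82.3) and Fdft1 (67.0 and 67.1) came next. In the silenced library the intervals of Hmgcs1 and Idi1 overlapped, and in the control those of Hmgcs1 and Fdft1 did. Insig1 stood at 52.3 and 48.0 and Lss at 24.0 and 24.4, the lowest. With the union of all coding exons as the length, Fdps stood at 396 and 427, still first, and Idi1 passed Hmgcs1 in the silenced library as well, at 73.1 against 71.3.

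The other steps of sterol synthesis held more genes below than above 0 on the log2 scale, while 6420 of all 12941 genes tested lay below 0. Of 5 further tested enzymes from acetyl-CoA to farnesyl diphosphate, 4 were lower and 1 higher, each beyond counting error, with a median log2 ratio of -0.15. Counting error alone is often exceeded in these libraries, since 28.2% of all genes tested had an interval below 0 and 26.9% above 0. Among genes with at least 4000 counts in each library the shares were 43.4% and 32.2%. The genes named below, from Mvk to Hsd17b7, all had fewer counts than that. Mvk, the mevalonate kinase, stood at 53.7 CPM in the silenced and 60.5 CPM in the control library, a log2 ratio of -0.17 (-0.26 to -0.09). Mvd, the mevalonate diphosphate decarboxylase, followed at -0.16 (-0.23 to -0.08). Pmvk, the phosphomevalonate kinase that acts between them, was the exception, at 0.20 (0.13 to 0.28). Of 10 enzymes from lanosterol to cholesterol, 8 were lower and 2 higher, with a median of -0.13, and the intervals of 6 lay below 0 and of 1 above 0, to be read against the same shares. Ebp, a sterol isomerase, stood at -0.21 (-0.31 to -0.10), and Hsd17b7, a sterol ketone reductase, at -0.19 (-0.26 to -0.12). None of these 15 genes was past 1.5-fold, against 5.39% of all genes tested on the higher and 6.31% on the lower side, and 0.45% and 0.811% of those with at least 4000 counts in each library.

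Of 8 other genes that control SREBP, 5 were lower and 3 higher, with a median of -0.05 (-0.01 with total counts in place of TMM). Of their intervals 3 lay below 0 and 0 above 0, against 28.2% and 26.9% of all genes tested. Scap, the escort of SREBP, had 3158 and 4172 counts (80.5 and 98.7 CPM), a log2 ratio of -0.29 (-0.36 to -0.23). Srebf1, which encodes SREBP1, had 3283 and 4278 counts (83.7 and 101 CPM), a log2 ratio of -0.27 (-0.34 to -0.21). Mbtps1, the site-1 protease, stood at -0.07 (-0.11 to -0.02). Srebf2, itself at 0.01, had 8.05 counts per count of Srebf1 in the silenced library and 6.60 in the control. This is a log2 difference of 0.29 (0.22 to 0.36 from the 4 counts). These counts are not scaled for transcript length, so they do not compare the levels of Srebf2 and Srebf1.

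Genes of sterol uptake and traffic had a median of -0.07 (-0.035 with total counts in place of TMM). Of these genes 9 of 14 were lower, against 6420 of the 12941 genes tested. The intervals of 6 lay below 0 and of 2 above 0, against 28.2% and 26.9% of all genes tested. Tmem97, a sterol-responsive membrane protein of the endoplasmic reticulum, had 86.3 and 109 CPM, a log2 ratio of -0.34 (-0.41 to -0.28), and Lipa, the lysosomal acid lipase, stood at -0.39 (-0.61 to -0.19). Gramd1b, a sterol transporter of the endoplasmic reticulum, was higher, at 0.24 (0.08 to 0.41). On the side of efflux and storage, Abca1, the exporter of cholesterol to apolipoproteins, had 2463 counts after silencing and 3973 counts in the control. Its log2 ratio of -0.58 (-0.66 to -0.51) lay just short of 1.5-fold. Soat1, which esterifies cholesterol for storage, stood at -0.10 (-0.17 to -0.04), and Nr1h3, the oxysterol receptor LXR alpha, at 0.17 with an interval from -0.21 to 0.55. The genes past 1.5-fold in this list, Soat2 with 48 and 27 counts and Apoe with 66 and 44, were higher, against 5.39% of all genes tested, and rest on few counts, and both are named after their values were seen. Of the 7 tested genes 3 had an interval below 0 and 2 above 0, against 28.2% and 26.9% of all genes tested. Their median was -0.02, and it was -0.098 with at least 200 counts over both libraries, a limit that leaves out Soat2 and Apoe, and 0.013 with total counts in place of TMM.

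Uses of the mevalonate products other than sterols had a median of -0.03 (0.0022 with total counts in place of TMM), with 3 of 9 genes higher and 6 lower. Of their intervals 3 lay above and 3 below 0, against 26.9% and 28.2% of all genes tested. Pdss2, a subunit that makes the ubiquinone tail, was at 0.30 (0.10 to 0.50), Pggt1b, a subunit of a protein prenyl transferase, at 0.24 (0.10 to 0.38), and Nus1, a subunit of the dolichol-forming enzyme, at -0.21 (-0.28 to -0.14). Of 6 enzymes that make or break down oxysterols, Ch25h and Cyp27a1 were at 0 counts in both libraries, and the intervals of the 4 tested genes all held 0, as did those of 5814 of the 12941 genes tested, among them Hsd3b7 at -0.01 (-0.11 to 0.09) and Cyp39a1 at 0.00 (-0.34 to 0.34). The others, named after their values were seen, were Cyp7b1 with 31 and 34 counts and Cyp46a1 with 10 and 10, which are too few for a moderate difference to be detectable.

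Fatty acid synthesis, whose genes are best known as targets of SREBP1, was set beside the sterol genes for comparison. Of 12 genes 7 were lower and 5 higher, with a median of -0.08. That median was -0.16 with at least 200 counts over both libraries and -0.05 with total counts in place of TMM. Of the 12 genes 3 were at least 1.5-fold lower, against 6.31% of all genes tested. Acly, which makes the cytosolic acetyl-CoA for both fatty acids and sterols, had 14298 counts (365 CPM) in the silenced library and 26230 counts (621 CPM) in the control, a log2 ratio of -0.77 (-0.80 to -0.74). Elovl6, a fatty acid elongase, had 6981 and 11522 counts, a log2 ratio of -0.62 (-0.66 to -0.57). Acss2, the acetyl-CoA synthetase that uses acetate, had 391 and 645 counts and a ratio of -0.61 (-0.80 to -0.43). Elovl6 and Acss2 lay close to the limit of 1.5-fold, which is 0.585 on the log2 scale. Their calls depend on the scaling, since total counts in place of TMM shifted the 8 sterol genes by up to 0.03. Fasn, the fatty acid synthase, singled out after its value was seen, had 28764 and 44586 counts and a ratio of -0.52 (-0.55 to -0.50). The intervals of 6 genes of the list lay below 0 and of 2 above 0, against 28.2% and 26.9% of all genes tested. The 2 above 0, named after their values were seen, were Me1, the cytosolic malic enzyme, at 0.19 (0.13 to 0.26) and Elovl5, a fatty acid elongase, at 0.11 (0.05 to 0.18). Scd1, a desaturase also named after its value was seen, stood at 346 and 345 CPM. The difference between the fatty acid list and the 8 sterol genes was not tested, because genes of 1 library are not replicates. The summed level of the fatty acid list was 3909 CPM in the silenced and 4775 CPM in the control library, against 2670 and 2699 CPM for the 8 sterol genes.

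**Figure D4:**
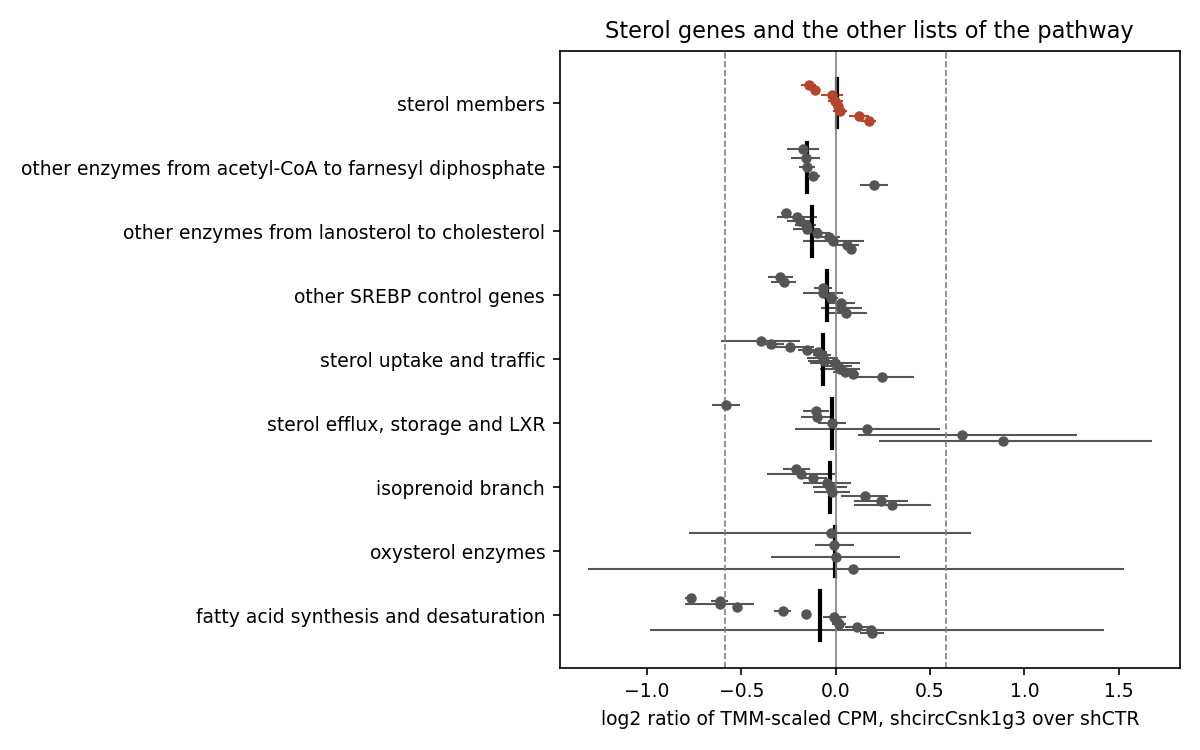
Log2 ratio of TMM-scaled CPM, shcircCsnk1g3 over shCTR (horizontal axis), of every tested gene of the 8 sterol genes (red) and of 8 further lists of the pathway (grey). Bars are 95% exact intervals for counting error, black lines are list medians and dashed lines mark 1.5-fold, which none of the 8 sterol genes passed, while 3 fatty acid genes lay beyond it on the lower side and Soat2 and Apoe on the higher.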

How the data were processed

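Polyadenylated RNA of 2 libraries was sequenced with a stranded kit. Per the submitters' processing notes STAR aligned the reads, to GRCm38, and the authors deposited RSEM estimated counts per gene as whole numbers, without normalization, and RSEM divides reads shared by near-identical genes. They also deposited TMM-scaled CPM, made in edgeR, for 11624 genes, among them all 8 described here. Of the rows of the count table, 92 spike-ins, all at 0, were left out.

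Here TMM factors and log2 ratios (prior count of 2) were computed with edgeR 4.0.16 in R 4.3.3 for every gene that reached 10 counts in either library, and intervals with scipy 1.17.1 under python 3.11.15. With 1 library per group no p-value was computed, and 1.5-fold was the limit for a call. The floor was set at 3 counts per library. Coordinates and lengths are from GENCODE M21, which held 25251 of the 25509 gene identifiers. The release used by the authors is not given in the sources used here.

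The genes and lists were chosen with earlier results of these data known. Genes named from each list are the 3 with the largest absolute ratio among those with at least 200 counts over both libraries. Some genes that this rule names are not reported here. The steps were tested on simulated counts. The alternatives were DESeq2 1.42.0 size factors, total counts, prior counts of 0.5 and 10, no filter, at least 200 counts over both libraries, the deposited TMM-scaled CPM (with 0.0491 CPM added to each value) and limits of 5/4-fold and 2-fold. Protein sequences were not analysed here.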

Additional observations from a re-analysis of the deposited data

How the results depend on the processing

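No paired analysis was possible because each condition had a single library, and for the same reason no library could be left out. None of the 8 genes passed 1.5-fold under any alternative tried, nor a limit of 5/4-fold or 2-fold. Of 56 values of the 8 genes under the alternatives, 54 stayed within their counting intervals and 54 kept their sign. Total counts without TMM shifted the 8 genes by at most 0.03, moved Fdps to -0.078 and Srebf2 to 0.043, turned Fdft1 to 0.03 and Lss to 0.01, raised the number of the 8 with an interval above 0 from 2 to 4 (and that of all 12941 genes from 3476 to 4117) and moved the median of the fatty acid list to -0.051. That median was -0.158 with at least 200 summed counts and -0.156 in the deposited table. For sterol efflux and storage the median was -0.057 without a filter and -0.098 with at least 200 summed counts. With total counts the medians of efflux and storage, isoprenoid and oxysterol genes turned to 0.013, 0.0022 and 0.027. The median of all genes moved to 0.03 under the same setting. Of 63 list medians under the alternatives, 62 stayed within the counting spread of their genes. Without the 10 most abundant genes, the 8 genes held 0.284% and 0.281% of the counts of the silenced and control libraries.

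The number of all genes past 1.5-fold varied with the filter on low counts. The 698 higher and 817 lower genes became 1765 and 1468 without a filter, 212 and 335 with at least 200 summed counts, 10 and 18 with at least 4000 counts in each library (chosen after seeing the data) and 352 and 528 in the deposited TMM-scaled table. They became 1598 and 1692 at 5/4-fold and 275 and 330 at 2-fold. The filters and limits change these numbers by construction, and for the deposited table the cause was not tested. Depth limits the 8 genes little, while the spread between cultures is not known.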
